A study of Homo sapiens with 4 samples.

Results

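The FGF receptors and ligands were followed in U87MG cells, an established human glioblastoma (GBM) line, with and without the fungal metabolite chaetocin. Chaetocin inhibits histone methyltransferases unspecifically and also inhibits thioredoxin reductase-1. The study that reported these samples found H3K9 trimethylation unchanged by chaetocin and attributes its pro-apoptotic effect to reactive oxygen species. The family comprised 8 genes of the 57905 in the count tables, namely *FGFR1*, *FGFR2*, *FGFR3*, *FGFR4*, *FGFRL1*, *FGF1*, *FGF2* and *FGF5*. They were chosen with the reads of these samples in view, since *FGFR4* had no read in untreated cells and had reads with chaetocin, so the comparison of treated with untreated cells is given for the 8 genes as a description, with no p-value. PolyA-selected RNA was sequenced from 2 control samples, which were wild type U87MG cells left untreated, and from 2 samples of the same cells that received 50 nM chaetocin for 24 h. Chaetocin was added in DMSO whereas the labels call the control cells untreated, so an effect of the solvent and an effect of chaetocin cannot be told apart. The labels do not say whether the samples of a group came from separate cultures, and p-values then measure only the spread between these samples, which may be technical.

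FGFs are secreted proteins that bind, together with heparan sulfate, to receptor tyrosine kinases at the cell surface. Binding pairs the receptors, which phosphorylate the adaptor FRS2 and pass the signal to the RAS-ERK and PI3K pathways, and ERK in turn induces inhibitors that limit the signal. FGFR1 to FGFR4 carry the kinase domain, whereas FGFRL1 binds FGFs but lacks that domain. FGFR4 is known as the receptor through which FGF19, with the co-receptor beta-Klotho, restrains bile acid synthesis in the liver, and FGFR1 is a receptor described in malignant glioma cells.

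The sequences upstream of the starts of the receptors with few or no reads are shown here because they are where transcription of these genes would begin, and the start of *FGF2*, an abundantly read ligand, is set beside them. RefSeq windows on GRCh38.p14, from 250 bases before to 50 after each annotated start, were found for 7 of the 8 genes. Each printed stretch runs 5′ to 3′ on the strand of the gene, ends before the first annotated exon base in the window, and has its CG dinucleotides in capitals.
FGFR4 start 1, chr5:177086665-177086885, plus strand: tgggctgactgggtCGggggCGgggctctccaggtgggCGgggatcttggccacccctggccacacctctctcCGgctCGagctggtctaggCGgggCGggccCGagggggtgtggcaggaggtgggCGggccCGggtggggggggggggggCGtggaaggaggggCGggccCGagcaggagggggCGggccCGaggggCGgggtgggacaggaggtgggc
FGFR4 start 2, chr5:177089300-177089549, plus strand: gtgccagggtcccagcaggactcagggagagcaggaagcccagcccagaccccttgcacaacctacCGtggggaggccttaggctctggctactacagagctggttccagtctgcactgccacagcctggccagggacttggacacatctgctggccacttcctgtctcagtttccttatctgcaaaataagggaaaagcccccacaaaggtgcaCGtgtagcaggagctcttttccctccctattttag
FGFR3 start 1, chr4:1793043-1793292, plus strand: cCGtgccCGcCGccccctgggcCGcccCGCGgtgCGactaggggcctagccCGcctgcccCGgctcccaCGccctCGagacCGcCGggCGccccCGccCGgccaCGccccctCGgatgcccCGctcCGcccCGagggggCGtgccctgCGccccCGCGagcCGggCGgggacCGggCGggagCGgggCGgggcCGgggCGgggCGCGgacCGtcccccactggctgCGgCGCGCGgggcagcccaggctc
FGFR2 start 1, chr10:121598459-121598694, minus strand: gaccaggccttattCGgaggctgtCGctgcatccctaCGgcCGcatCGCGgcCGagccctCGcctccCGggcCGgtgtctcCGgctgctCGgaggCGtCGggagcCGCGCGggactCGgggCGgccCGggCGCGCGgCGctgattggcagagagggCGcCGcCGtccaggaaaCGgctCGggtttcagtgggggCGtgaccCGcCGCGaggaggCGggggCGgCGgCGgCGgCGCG
FGF2 start 1, chr4:122826581-122826707, plus strand: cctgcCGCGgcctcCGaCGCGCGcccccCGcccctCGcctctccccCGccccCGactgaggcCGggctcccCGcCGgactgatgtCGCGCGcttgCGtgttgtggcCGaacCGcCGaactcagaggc
The upstream start of *FGFR4* was rich in CG and the downstream one, within the first part of the gene, was poor in it. In the full window of 300 bases, *FGFR4* start 1 held 30 CG dinucleotides, and 22.4% of 35114 RefSeq start windows held at least as many. *FGFR4* start 2 held 2 CG dinucleotides, and 89% of the windows held at least as many. The GC box GGGCGG, searched on both strands, occurred 7 times around *FGFR4* start 1 and not around start 2, and 45% of all windows held at least 1 copy. The first starts of *FGFR2* and *FGFR3*, both with almost no reads in any sample, held 52 and 51 CG dinucleotides, counts reached by 0.78% and 1.01% of windows, whereas the other 4 starts of *FGFR2* held 5 to 8. Among the genes with more reads, the windows held 41 CG dinucleotides for *FGF2*, 31 for *FGF5* start 1, 25 for *FGFRL1* and 2 for *FGF1* start 1. High and low CG counts therefore both occurred among genes with reads. The antioxidant response element core TGACNNNGC was present once in the windows of *FGF2* and *FGFRL1* (13.3% of all windows held it) and in neither window of *FGFR4*. The E-box CACGTG was present once in the windows of *FGFR4* start 2 and *FGFRL1* (7.26% of all windows held it). The TATA box TATAAA (11.5% of all windows) and the AP-1 site TGANTCA (7.71%) were in neither window of *FGFR4*. The deposited counts are per gene, so they do not say from which start the reads of *FGFR4* came.

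**Figure D1:**
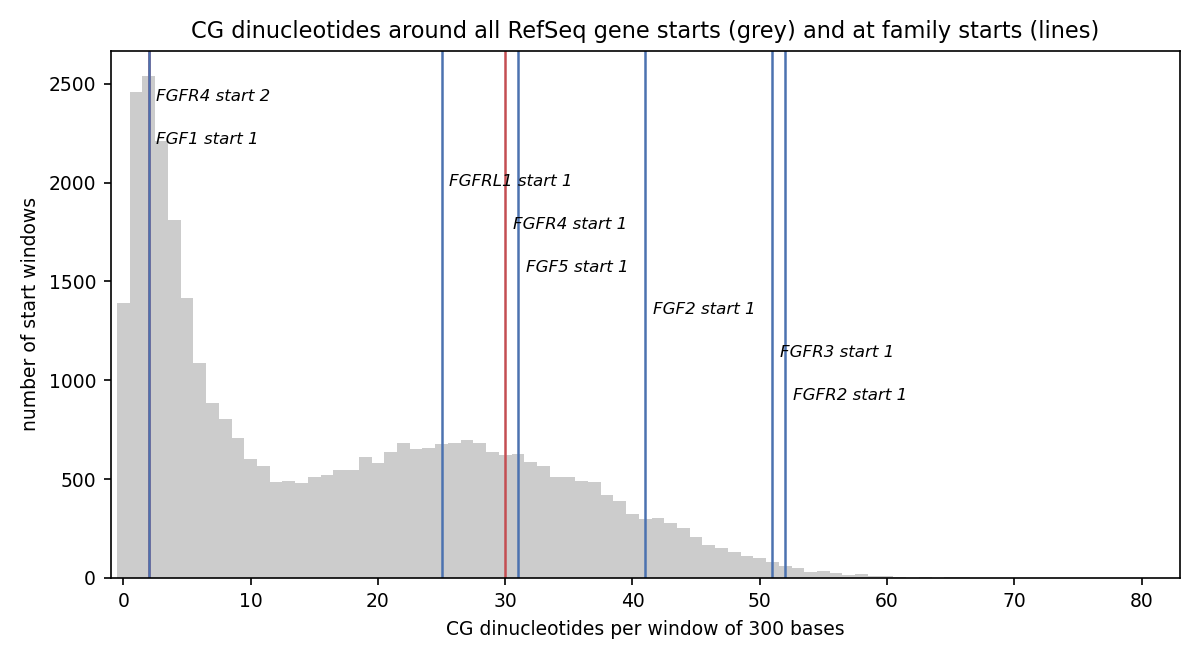
Number of RefSeq start windows (y axis) by CG dinucleotides per window of 300 bases (x axis), with lines for family starts, *FGFR4* in red (start 2 lies under the line of *FGF1*). *FGFR4* start 1 stood at 30 and start 2 at 2, while *FGFR3* and *FGFR2* stood at 51 and 52.

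*FGFR4* (ENSG00000160867, GRCh38 chromosome 5, 177086886 to 177098144, plus strand) was without a read (0) in each control sample, while 21 reads fell on it in chaetocin sample 1 and 83 in chaetocin sample 2. A count of 0 allows up to 3 reads in each control sample (a 1-sided limit at 95%), and exact 2-sided Poisson 95% intervals were 13.0 to 32.1 reads in chaetocin sample 1 and 66.1 to 103 reads in chaetocin sample 2. Floor and intervals cover counting error only, since PCR copies are not independent molecules. Both chaetocin samples thus lay above both control samples, and their own intervals did not meet. In CPM, the depth-scaled read count, after TMM normalization, *FGFR4* reached 0.965 in the first treated sample and 2.34 in the second, a 2.42-fold gap between samples treated alike. Against that floor of 3 reads per control library, its mean with chaetocin was 14.5-fold higher. Chaetocin sample 1 alone was 7.85-fold the higher of the 2 control floors. Both folds use the observed chaetocin values and do not allow for their counting error, so they are not lower bounds. The fitted log2 fold change (log2 change from here on) was 8.54, a value that depends on the prior count where a group is at 0 and is no bound. In bulk RNA, more cells with the transcript and more transcript per cell cannot be told apart.

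Chaetocin sample 2 stood apart in breadth as well as in *FGFR4*. It had reads on 27748 genes, against 24174 to 24699 in the other 3 samples, and totals ran from 21241984 to 32590479 reads per sample. After random thinning of each library to the smallest total, it still had reads on 26308 genes against 23253 to 24699 in the others. *FGFR4* then had 56 reads in chaetocin sample 2, 21 in chaetocin sample 1 and 0 in both control samples. Thinning could change neither the control samples at 0 nor chaetocin sample 1, which was the smallest library, so it bears only on the gap between the treated samples.

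Among the 30865 genes with no read in either control sample, 3 had at least as many reads as *FGFR4* in both chaetocin samples, *FGFR4* included. The others were *NCAN*, a brain chondroitin sulfate proteoglycan, with 23 and 94 reads, and *MLC1*, an astrocyte membrane protein, with 64 and 223 reads. In the opposite direction, 0 of 28290 genes without a read in the chaetocin samples reached these numbers in the controls, a count with no test. The 5 tested genes nearest to *FGFR4* in pattern, by Euclidean distance of log2(normalized CPM + 0.5) over the 4 samples, were *NCAN* (distance 0.173), *ZNF385B* (0.426), *CLDN6* (0.442), ENSG00000049319 (0.47) and *SLC34A3* (0.472). With 4 samples a likeness of pattern is weakly determined, and these genes were picked from all 16416 tested.

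*FGFR1* (ENSG00000077782, chromosome 8, 38400215 to 38468834, minus strand) carried nearly all receptor reads. Its level was 208 and 213 CPM in the control samples and 217 and 181 CPM in the chaetocin samples, and the groups overlapped. The log2 change was -0.08 (standard error 0.16), smaller than the gap of -0.27 between the chaetocin samples on the log2(CPM + 0.5) scale. Per kb of exon, *FGFR1* made up 99.9% of the summed level of *FGFR1* to *FGFR4* in each control sample, 98.4% in the first treated sample and 96.1% in the second. The *FGFR4* share of that sum was 0% in both control samples, 1.25% in the first treated sample and 3.56% in the second. *FGFR4* reads were therefore a small part of the receptor reads, beside *FGFR1* levels that overlapped between groups.

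*FGFR2* (ENSG00000066468, chromosome 10, 121478334 to 121598458, minus strand) and *FGFR3* (ENSG00000068078, chromosome 4, 1793293 to 1808872, plus strand) did not pass the filter on low counts and were not tested. *FGFR2*, which is best known for epithelial and skeletal development, had 1 and 3 reads without chaetocin, against 6 and 1 with it. *FGFR3*, the receptor altered in achondroplasia and fused to *TACC3* in some GBM, had 2 and 0 reads without chaetocin, against 2 and 8 with it. For *FGFR2* the groups overlapped, and for *FGFR3* 1 sample of each group had 2 reads, so no difference was detectable at this depth for either. *FGFR4* was in this sense unlike *FGFR2* and *FGFR3*, whose 95% upper limits in chaetocin sample 2 were 5.57 and 15.8 reads against its lower limit of 66.1, but the sample was part of what chose *FGFR4*, so this is a description.

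*FGFRL1* (ENSG00000127418, chromosome 4, 1009936 to 1026897, plus strand), the family member without a kinase domain, was at 42.8 and 38.8 CPM in the control samples and at 60.1 and 69.8 CPM with chaetocin. Both chaetocin samples lay above both control samples, by 1.59-fold in the means. Its log2 change was 0.67 (standard error 0.15) and stayed between 0.55 and 0.78 with each sample left out in turn. Of the 8 genes, 6 passed the filter on low counts, *FGFR4* only through its treated samples. Groups that did not overlap, with chaetocin higher, were seen for *FGFR4* and *FGFRL1* among the tested members and for 26.8% of all genes tested.

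The 3 ligands of the family were all read in control cells, and none of them separated the groups. *FGF2* (ENSG00000138685, chromosome 4, 122826708 to 122898236, plus strand), the basic FGF used to grow neural stem cells, was at 171 and 163 CPM in the control samples and at 180.3 and 127 CPM in the chaetocin samples. Its highest and its lowest value thus both came from treated cells, with a log2 change of -0.12 (standard error 0.19). *FGF5* (ENSG00000138675, chromosome 4, 80266599 to 80336680, plus strand), known for ending the growth phase of hair follicles, was at 11.9 and 11.8 CPM in the control samples and at 12.04 and 10.3 CPM with chaetocin, and its log2 change was -0.08 (standard error 0.20).
*FGF1* (ENSG00000113578, chromosome 5, 142592178 to 142698070, minus strand), the acidic FGF that binds each of the kinase receptors, was at 7.54 and 5.67 CPM in the control samples and at 6.43 and 2.90 CPM in the chaetocin samples. Chaetocin sample 1 lay between the control samples and only chaetocin sample 2 lay below them, so the groups overlapped. The log2 change of *FGF1* was -0.52 (standard error 0.37), and it was -1.18 without chaetocin sample 1 but -0.04 without chaetocin sample 2, so the difference rests on chaetocin sample 2. Each of *FGF1*, *FGF2*, *FGF5* and *FGFR1* was lower in chaetocin sample 2 than in sample 1, whereas *FGFR4* and *FGFRL1* were higher there.

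**Figure D2:**
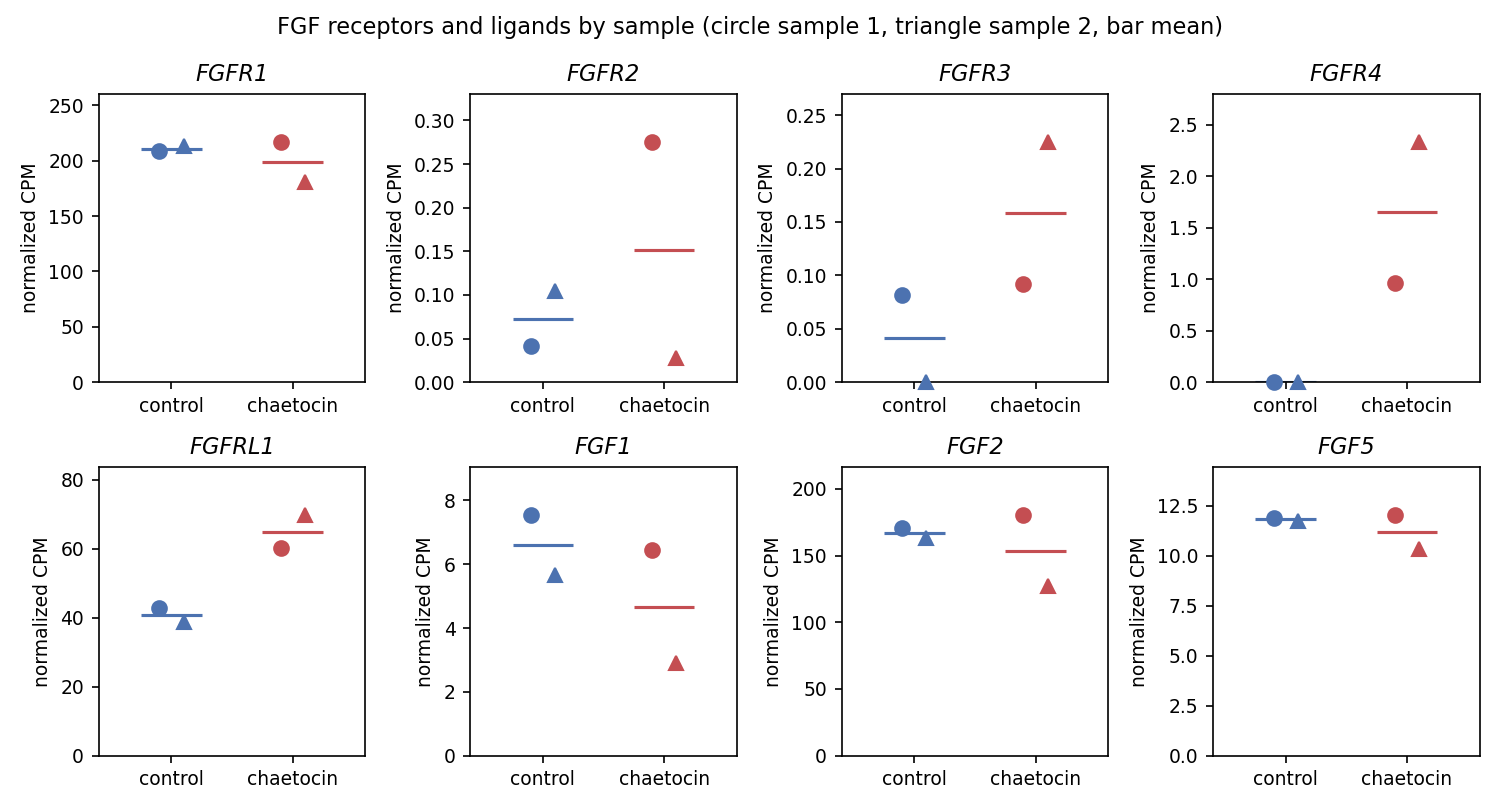
Normalized CPM (y axes, each from 0) of the 8 genes in control (blue) and chaetocin (red) samples, with circles for sample 1, triangles for sample 2 and bars for group means. *FGFR4* and *FGFRL1* show both red points well above both blue points. *FGFR3* has 8 reads or fewer per sample, with its lower red point almost level with its higher blue point, and the other 5 genes overlap.

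Levels were compared between genes per kb of union exon length, a measure that understates genes with long, rarely used exons. In control cells the order was *FGF2* (24.7 ± 0.80 CPM per kb, SD, n = 2), *FGFR1* (15.2 ± 0.24), *FGFRL1* (9.85 ± 0.68), *FGF5* (1.97 ± 0.01) and *FGF1* (1.25 ± 0.25), and each of these neighbours differed by more than their spread. *FGFR2* and *FGFR3* were at 0.01 CPM per kb in the control mean, not told apart, and *FGFR4* was at 0. With chaetocin, *FGF2* was at 22.7 ± 5.56, *FGFRL1* at 15.7 ± 1.65 and *FGFR1* at 14.4 ± 1.87 CPM per kb (SD, n = 2), and the last pair did not differ beyond its spread. *FGF5* (1.86 ± 0.20) and *FGF1* (0.885 ± 0.47) kept their places, and *FGFR4* followed with 0.34 ± 0.20 CPM per kb, above *FGFR3* (0.03 ± 0.02) and *FGFR2* (0.02 ± 0.02). In chaetocin sample 2, *FGF1* (0.55 CPM per kb) and *FGFR4* (0.48 CPM per kb) were close. Among 15981 tested genes with a known length, the mean level of *FGFR4* with chaetocin stood at percentile 13.8, that of *FGFR1* at 80.3 and that of *FGF2* at 87.9.

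**Figure D3:**
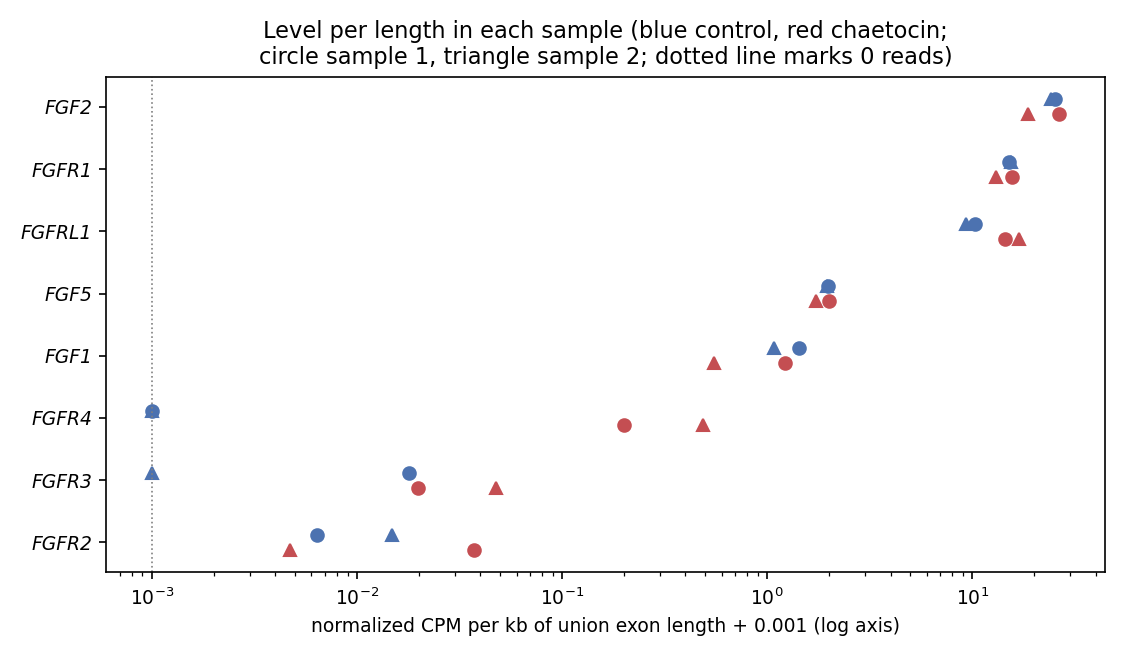
Level of each gene in each sample as normalized CPM per kb of exon + 0.001 (log x axis), genes on the y axis ordered by their mean, control in blue, chaetocin in red, circles for sample 1 and triangles for sample 2. The *FGFR4* control samples sit on the dotted line of 0 reads and its chaetocin samples at 0.20 and 0.48, between *FGFR3* and *FGF1*.

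Several members share exon positions with another gene, and the strand setting of the counting is not given in the sources used here. Exons of *NUDT6* on the opposite strand cover 11.9% of the exon bases of *FGF2*, and *NUDT6* had 184 to 317 reads per sample against 3924 to 4692 for *FGF2*. *FGFR1* shares 0.997% of its exon bases with *LETM2* and 1.13% with ENSG00000255201, both antisense, and *FGF5* shares 2.27% with *CFAP299* on its own strand. No overlapping exon was annotated for *FGFR4*.

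Of the 6 nearest protein-coding genes beside *FGFR4* on chromosome 5, 5 had reads in all samples and were tested. *ZNF346*, a zinc finger gene on the same strand that ends 5.7 kb before *FGFR4*, was at 8.89 and 8.28 CPM in the control samples and at 7.95 and 11.1 CPM with chaetocin. Its log2 change was 0.16 (adjusted p = 0.757, edgeR's quasi-likelihood test), and the groups overlapped. *NSD1*, a histone H3 lysine methyltransferase whose gene starts 34.9 kb after *FGFR4*, was at 84.7 and 98.7 CPM without and at 79.0 and 100.2 CPM with chaetocin (log2 change -0.03, adjusted p = 0.936 from edgeR). *UIMC1*, a ubiquitin-binding protein of the BRCA1 complex, and *RAB24*, a small GTPase, had log2 changes of -0.15 and 0.27, with adjusted p of 0.663 and 0.719 from edgeR. *MXD3*, a MYC network repressor, was higher in both chaetocin samples (22.6 and 19.9 CPM) than in both controls (12.5 and 10.8 CPM), as were 26.8% of all genes tested. Its adjusted p of 0.056 from edgeR did not pass the threshold. *RAB24* and *MXD3* overlap on the same strand, so the split of reads between them is uncertain. *HK3*, a hexokinase, was without a read in 3 samples and had 4 reads in chaetocin sample 2.

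**Figure D4:**
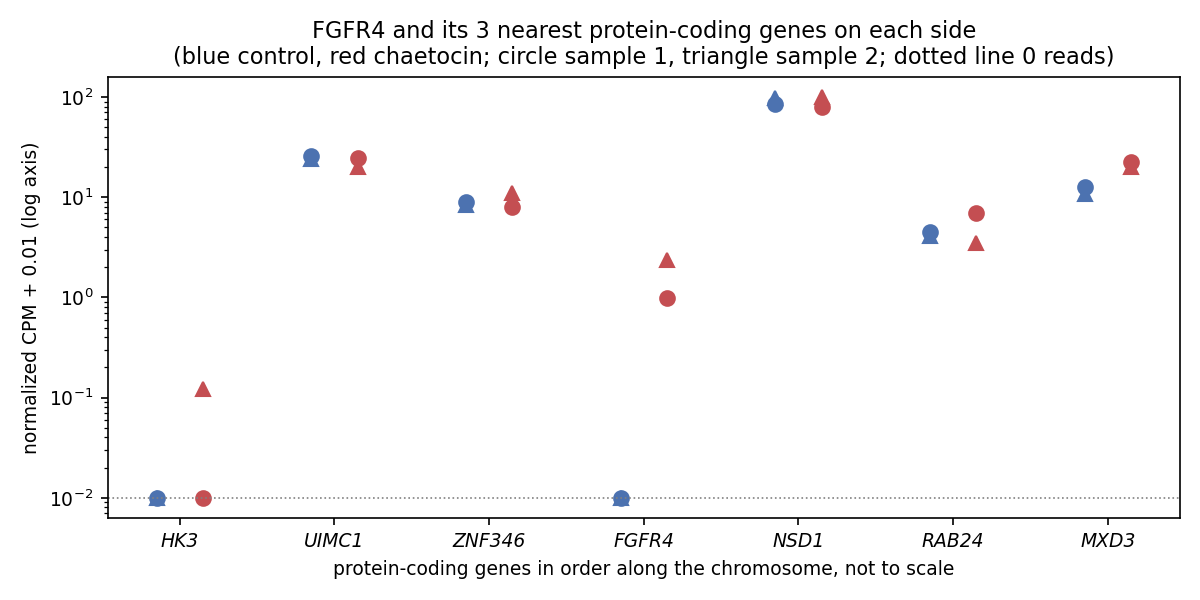
Normalized CPM + 0.01 (log y axis) of *FGFR4* and the 3 nearest protein-coding genes on each side in their order along the chromosome (x axis, not to scale), control in blue, chaetocin in red, circles for sample 1 and triangles for sample 2. *FGFR4* has both blue points on the dotted line of 0 reads and red points at 0.965 and 2.34 CPM, whereas *HK3* has 3 of its points on that line.

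The other genes of the FGF pathway were read from a list of 116 genes in 8 roles, none of them among the family above, of which 93 passed the filter. By the quasi-likelihood test of edgeR, at an adjusted p under 0.05, 0 were higher and 1 was lower with chaetocin, where 1.85% of all 16416 genes tested were called, 1.11% higher and 0.743% lower. At an unadjusted p under 0.05, 5 of the 93 were higher and 25 lower, against 10.9% and 9.43% of all genes. DESeq2 gave 93 of the list an adjusted p and called 1 higher and 9 lower, against 2.35% and 2.93% of all genes with one. The median log2 change was -0.20 over the list and 0.01 over all genes tested, with 67 of the 93 genes below 0.

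The genes of the FGF19 axis of FGFR4 had few or no reads. *FGF19*, the hormone-like ligand, had no read in any sample. *KLB*, which encodes beta-Klotho, had 7 and 12 reads in untreated cells and 10 and 9 with chaetocin (log2 change -0.05, adjusted p = 0.977 from edgeR). These were named for their role and fall outside the naming rule.

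Of 15 other secreted FGFs, 6 had no read in any sample and 3 were tested, with 0 called by edgeR, 0 by DESeq2 and 0 at an unadjusted p under 0.05. The more abundant per kb were *FGF18*, a growth factor of cartilage and bone, with a log2 change of 0.46 (adjusted p = 0.525 from edgeR), and *FGF7*, the keratinocyte growth factor, with -0.49 (adjusted p = 0.535). *FGF18* was at 1.84 and 1.25 CPM in the control and 1.84 and 2.36 CPM in the chaetocin samples, and *FGF7* at 3.16 and 2.02 CPM against 2.39 and 1.35 CPM. Both overlapped between groups. Among the intracellular homologues, which bind sodium channels and are not secreted, 0 of 3 tested genes were called by edgeR, 1 was lower at an unadjusted p under 0.05 (9.43% of all genes), and DESeq2 called 1 lower (2.93% of all genes). In both cases the gene was *FGF14*, at 18.6 and 22.4 CPM in the control and 13.7 and 9.46 CPM in the chaetocin samples (log2 change -0.83, standard error 0.23, adjusted p = 0.0967 from edgeR, and 0.0347 with DESeq2). *FGF12* had a log2 change of 0.05 (adjusted p = 0.933).

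Co-receptors, binding proteins and heparan sulfate genes held 26 tested genes, of which edgeR called 0 and DESeq2 called 2, *GPC1* higher (2.35% of all genes) and *GPC6* lower (2.93%). Of the 9 co-receptors and binding proteins, 1 was higher at an unadjusted p under 0.05 (10.9% of all genes) and the median log2 change was -0.05. Their most abundant genes per kb were *LGALS3*, encoding galectin-3, and *CDH2*, encoding N-cadherin, with log2 changes of -0.21 (adjusted p = 0.518) and -0.13 (adjusted p = 0.681), both from edgeR. Of the 17 genes for heparan sulfate proteoglycans and their enzymes, 3 were higher and 8 lower at an unadjusted p under 0.05 (10.9% and 9.43% of all genes), with a median of -0.27. *SDC4*, a syndecan of focal adhesions, was at 232 and 191 CPM in the control samples and at 246 and 135 CPM with chaetocin, so the treated samples spanned the controls (log2 change -0.15, adjusted p = 0.799 from edgeR). *SDC1*, also a syndecan, was lower in both chaetocin samples (137 and 111 CPM) than in both control samples (172 and 185 CPM), as were 26% of all genes tested. Its log2 change was -0.53 (adjusted p = 0.124 from edgeR). *GPC1* and *GPC6*, glypicans named here after their values were seen, pointed in opposite directions, with log2 changes of 0.65 (adjusted p = 0.0799) and -0.70 (adjusted p = 0.0555) from edgeR.

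Adaptors and the kinase relay were read throughout, and edgeR and DESeq2 each called 0 of 33. All 16 adaptors and proximal signalling genes were tested, with 1 lower at an unadjusted p under 0.05 (9.43% of all genes) and a median log2 change of -0.18. *PTPN11*, which encodes the phosphatase SHP2, was at 439 and 494 CPM in the control and 394 and 417 CPM in the chaetocin samples (log2 change -0.20, adjusted p = 0.532 from edgeR). *CRKL*, an adaptor, had a log2 change of -0.10 (adjusted p = 0.762 from edgeR). *FRS2*, the adaptor that docks on the FGF receptors and is named for that role, had one of -0.01 (adjusted p = 0.987 from edgeR). In the RAS-ERK and PI3K relay, 17 genes were tested, with 1 higher and 2 lower at an unadjusted p under 0.05 (10.9% and 9.43% of all genes) and a median of -0.17. *NRAS* had a log2 change of -0.19 (adjusted p = 0.518) and *MAP2K1*, which encodes MEK1, one of -0.13 (adjusted p = 0.783), both from edgeR.

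Inhibitors of the pathway held the called gene. *RASA1*, which encodes a RAS GTPase-activating protein, fell from 211 ± 17.7 to 108 ± 18.0 CPM (SD, n = 2 each), with 224 and 198 CPM in the control and 121 and 95.6 CPM in the chaetocin samples. Its log2 change was -0.96 (standard error 0.17), with an adjusted p of 0.0382 by the quasi-likelihood test of edgeR. Without control sample 1 the adjusted p was 0.0964, and over all alternatives it ranged from 4.72e-06 to that value. RASA1 restrains RAS but is not known as a gene that ERK induces, unlike the Sprouty and DUSP genes of the same list. Of the 14 inhibitors, all tested, 13 had a log2 change below 0, and 6 were lower and 0 higher at an unadjusted p under 0.05 (9.43% and 10.9% of all genes), with a median of -0.45, and DESeq2 called 5 lower (2.93% of all genes). *SPRY2*, a Sprouty inhibitor of receptor kinase signalling, was at 135 and 162 CPM in the control and 105 and 72.4 CPM in the chaetocin samples (log2 change -0.75, adjusted p = 0.0942 from edgeR, and 0.0168 with DESeq2).

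A further 4 inhibitors are named here after their values were seen, and none of them passed the threshold of edgeR. *DUSP4*, an ERK phosphatase, was at 131 and 130.0 CPM in the control and at 82.7 and 62.1 CPM in treated cells (adjusted p = 0.0506 from edgeR). *SPRY4* was at 55.2 and 53.2 CPM against 33.1 and 22.8 CPM (adjusted p = 0.0519 from edgeR), and *SPRED3* at 6.35 and 6.47 CPM against 3.17 and 2.00 CPM (adjusted p = 0.0621 from edgeR). *DUSP6*, the phosphatase most specific for ERK, was at 109.8 and 105.6 CPM in the control samples and at 69.5 and 22.7 CPM in the chaetocin samples, and the wide gap between the treated samples went with an adjusted p of 0.192 from edgeR. Both treated samples lay below both untreated ones for each of the 4 genes, as they did for 26% of all genes tested.

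Genes that ERK is known to induce were tested in full, 14 of 14, with 0 called by edgeR, 7 lower at an unadjusted p under 0.05 (9.43% of all genes), and 2 called lower by DESeq2 (2.93% of all genes), *ETV1* and *HMGA2*. Their median log2 change was -0.49, and 11 of the 14 lay below 0. *CCND1*, encoding cyclin D1, was at 555 and 639 CPM in the control and 479 and 295 CPM in the chaetocin samples (log2 change -0.63, standard error 0.24, adjusted p = 0.199 from edgeR). Without chaetocin sample 1 its log2 change was -1.02 (adjusted p = 0.000593 from edgeR) and without chaetocin sample 2 it was -0.33 (adjusted p = 0.21). Both treated samples were below both controls, as for 26% of all genes tested, and the gap between the treated samples exceeded that between the controls. *FOSL1*, an AP-1 subunit, was at 343 and 384 CPM in the control and 349.9 and 251 CPM in the chaetocin samples (log2 change -0.28, adjusted p = 0.473 from edgeR), and the groups overlapped.

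**Figure D5:**
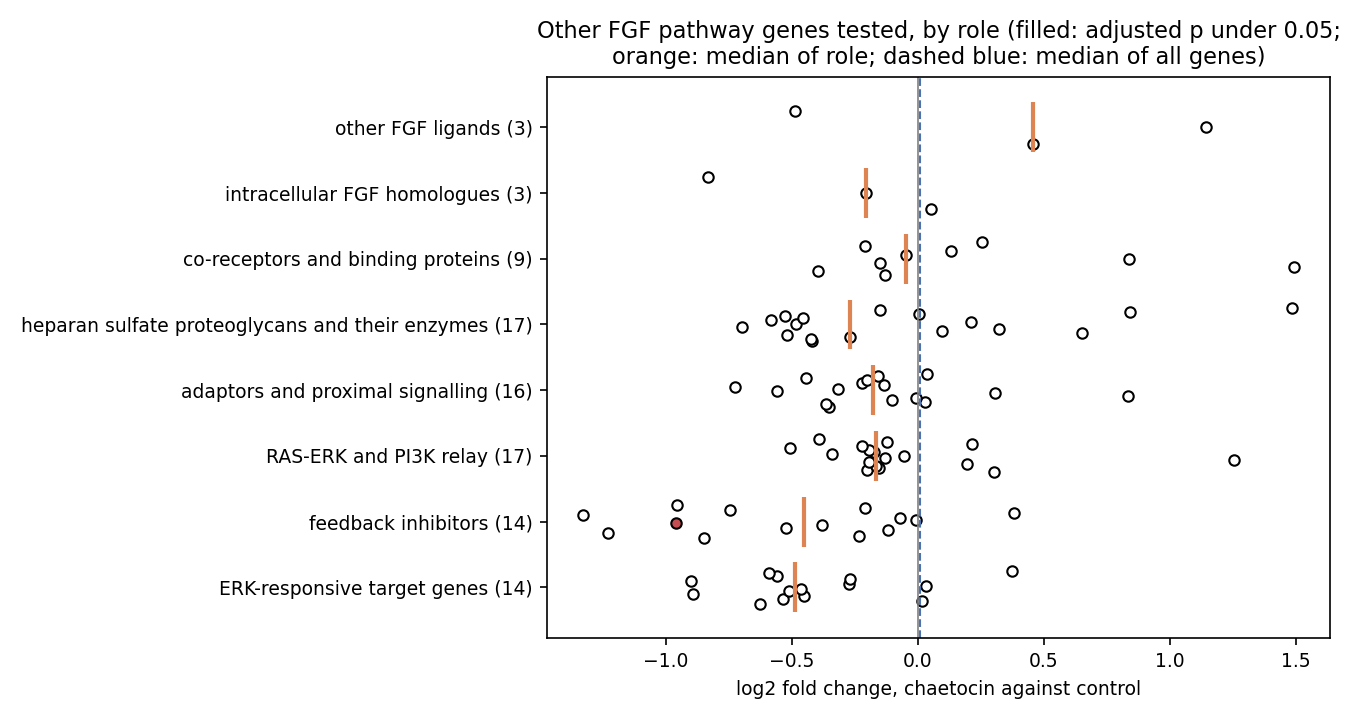
Log2 change of chaetocin against control (x axis) for the 93 tested genes of the pathway list by role (y axis, number tested in brackets), with a filled point for the gene at an adjusted p under 0.05, orange bars for the median of a role and a dashed line for the median of all genes. The medians of the feedback inhibitors (-0.45) and of the ERK-responsive targets (-0.49) lie farthest to the left.

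Markers of the line and of other cell types were read beside these results. The 10 glioma and astroglial markers summed to 8020 and 6890 CPM in the control and to 5270 and 3190 CPM in the chaetocin samples, with 1 of 7 tested genes (*CHI3L1*) called lower by edgeR (0.743% of all genes). Of these markers, *VIM*, *CD44* and *TNC* were abundant, *GFAP* was at 0.46 to 1.02 CPM, *SOX2* and *S100B* had no read in the control samples, and *AQP4* had none in any sample. Several defining astroglial markers were thus at or near 0 in these cells. The skeletal myogenic list, set beside FGFR4 because that receptor is known from muscle progenitors, had *PAX7*, *MYF5*, *MYOD1* and *MYOG* without a read in any sample, and a summed level of 8.69 and 8.98 CPM in the control and 12.5 and 11.2 CPM in the chaetocin samples. Nearly all of that sum came from *PAX3* (5.53 and 5.25 CPM in the control, 8.41 and 5.97 CPM in the chaetocin samples) and *MYH3* (3.07 and 3.72 against 4.09 and 4.90 CPM), and both were higher in both treated samples, as were 26.8% of all genes tested, but neither was called by edgeR. The hepatocyte list summed to 1.31 and 2.02 CPM in the control and to 2.94 and 2.31 CPM in the chaetocin samples. Most of that sum came from *SERPINA1* (1.07 and 1.74 CPM in the control, 2.44 and 1.52 CPM in the chaetocin samples). It was the 1 tested gene of the list, overlapped between groups and was not called by edgeR. *ALB* had 1 and 0 reads without and 8 and 11 reads with chaetocin and was not tested, and *TTR* and *CYP7A1* had 0 reads in every sample. Epithelial markers summed to 4.51 and 3.93 CPM in the control and 7.40 and 7.85 CPM in the chaetocin samples. Leukocyte markers summed to 0.492 and 0.592 CPM in the control and to 2.62 and 3.27 CPM in the chaetocin samples, with 2 of 4 tested genes (*PTPRC* and *ITGAM*) called higher by edgeR (1.11% of all genes) and *CD3E* and *TYROBP* at 0 reads in every sample. Endothelial markers summed to 13.6 and 18.6 CPM against 12.2 and 11.7 CPM, and neuronal markers to 85.9 and 89.2 CPM against 73.7 and 81.3 CPM, with 1 of 4 tested genes (*TUBB3*) called higher by edgeR (1.11% of all genes). The part of any of these cell types in the *FGFR4* reads was not tested.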

How the data were processed

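Libraries of polyA-selected RNA from 2 control and 2 chaetocin samples of U87MG cells were analysed. The authors deposited raw counts, the number of single-end reads on each Ensembl gene, without normalization. The submitters' processing notes name cutadapt, TopHat2, SAMtools and GRCh37, and the counting tool and its strand setting are not given in the sources used here. Of 57905 identifiers, 52338 were in GENCODE v29 on GRCh38, from which positions and exon lengths were taken, and 51996 had a symbol in the name table.

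From the counts, genes were filtered with filterByExpr (minimum count 10), which kept 16416 genes, and tested with edgeR 4.0.16 in R 4.3.3, by TMM normalization, a robust quasi-likelihood fit without a block and Benjamini-Hochberg adjustment over all genes tested (threshold 0.05). The standard error of a log2 fold change is its size over the square root of F. Alternatives included DESeq2 1.42.0. The biological coefficient of variation was 16.8%. Totals ran from 21241984 to 32590479 reads per sample, at which 3 reads equal 0.0844 to 0.138 normalized CPM.

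The members and the gene lists were chosen with earlier results of these data known. Named pathway genes were, in each role, called genes (at most 4) and the 2 most abundant per kb. Of the marker lists, *PECAM1* had no match among the identifiers.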

Additional observations from a re-analysis of the deposited data

How the results depend on the processing

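Counts of genes called higher and lower in all genes were 182 and 122, and 0 and 1 in the FGF pathway list. With no filter on low counts they came to 787 and 759, and 2 and 17 in the pathway. With at least 10 reads in every sample they were 114 and 80, and after thinning to the smallest library 113 and 67, with the pathway counts as reported in both. DESeq2's Wald test gave 385 and 481, and 1 and 9 in the pathway (*GPC1* higher, and *RASA1*, *DUSP4*, *SPRY2*, *SPRY4*, *SPRED3*, *ETV1*, *HMGA2*, *GPC6* and *FGF14* lower). Upper-quartile factors raised the share of calls that were higher to 73.7% (270 of the 304 reported calls were shared). When 1 sample was left out at a time, which leaves a lone sample assumed to vary like the other group, the counts ranged from 215 to 1332 higher and from 97 to 1673 lower, and in the pathway from 0 to 4 higher and from 1 to 29 lower. The highest counts came without chaetocin sample 1 (1332 and 1673, and 4 and 29), followed by those without chaetocin sample 2 (712 and 940, and 2 and 17). Without control sample 1 the lower pathway gene was *DUSP6* in place of *RASA1*, and without control sample 2 there were 2 lower. Their cause was not tested.

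With the replicate number as a block, the counts were 1036 and 1053, and 2 and 21 in the pathway. The labels do not say whether samples of the same number were handled together. The difference between samples 2 and 1 correlated between the groups with r = 0.191 across 16416 genes, which are not independent replicates. With 2 pairs this neither shows nor excludes a pairing or a batch by sample number. The block brought *CCND1*, *SPRY2*, *SDC1* and *FGF14* under the threshold among the named pathway genes, with log2 fold changes of -0.66, -0.77, -0.53 and -0.85. Of the genes named after their values were seen, it also called *GPC1* and *KSR1* higher and *DUSP4*, *SPRY4*, *SPRED3*, *GPC6*, *ETV1*, *HMGA2* and *MYC* lower.

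Without chaetocin sample 1, the log2 fold changes of *CCND1* (-1.02), *FOSL1* (-0.53), *SPRY2* (-1.04), *SDC1* (-0.68), *SDC4* (-0.64), *FGF14* (-1.11) and *MAP2K1* (-0.49) passed the threshold of edgeR, as did *SPRY2* (-0.51) without chaetocin sample 2. Of the named pathway genes, 3 changed sign with a sample left out. *SDC4* ranged from -0.64 to 0.21 and *MAP2K1* from -0.49 to 0.15, positive without chaetocin sample 2, and *FGF12* from -0.11 to 0.20, negative without control sample 2. For the tested family members, 64 of 71 log2 fold changes moved by less than the spread between replicates. Within that spread, *FGFR1* (0.04), *FGF2* (0.10) and *FGF5* (0.02) changed sign without chaetocin sample 2, and *FGF5* (0.02) also after thinning. The exceptions were *FGFR4*, at 7.89 with DESeq2, 9.11 without chaetocin sample 1 and 7.59 without chaetocin sample 2, and *FGFR1* (-0.22), *FGF1* (-1.18), *FGF2* (-0.39) and *FGF5* (-0.19), all without chaetocin sample 1. *FGFR4* had no value with at least 10 reads in every sample, because it then was not tested. Depth limited *FGFR2* and *FGFR3*, at 8 reads or fewer per sample.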

Other observations

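*EGR1* and *FOS*, immediate early genes of the list of ERK targets, differed more by sample number than by treatment. They were picked after their values were seen, and others of that list, such as *MYC* (99.7 and 126 CPM in the control and 77.6 and 76.0 CPM in the chaetocin samples), did not show this. *EGR1*, a zinc finger factor, was at 34.3 CPM in control sample 1 and 42.0 CPM in chaetocin sample 1, against 114 CPM in control sample 2 and 107 CPM in chaetocin sample 2. *FOS* was at 21.8 and 18.3 CPM in the samples numbered 1 and at 44.7 and 49.5 CPM in those numbered 2. The log2 fold changes of chaetocin against control were 0.02 for *EGR1* (standard error 0.71) and 0.03 for *FOS* (standard error 0.48). What the sample number stands for is not given in the labels.

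The feedback inhibitor *SPRY1* was the 1 gene of its list above 0, at 6.35 and 4.32 CPM in the control samples and 9.97 and 4.08 CPM in the chaetocin samples, and these overlapped. *KSR1*, a scaffold of the ERK cascade, was higher in both chaetocin samples (3.81 and 6.00 CPM) than in both control samples (2.42 and 1.74 CPM), as were 26.8% of all genes tested. Its log2 fold change was 1.25, with an adjusted p of 0.0909 from edgeR's quasi-likelihood test.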
